A study of Homo sapiens with 6 samples.

Results

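PRRX2, PRRX1, RAX, PAX3, PAX6, PITX1, SHOX2, OTX1 and OTX2 are 9 paired-class homeobox genes. They were followed in an established human Ewing sarcoma cell line, TC-71, with and without knockout of XG. The genes were picked by name from the 60662 rows of the count table. They were chosen with this comparison already known, PRRX2 in particular, so their values are given as a description and carry no test. The XG product is a glycoprotein of the cell surface, known from the Xg blood group. The 6 libraries were 3 of untreated XG knockout cells and 3 of untreated wildtype cells, both grown in the same serum-containing medium and profiled by strand-specific mRNA sequencing. Whether the knockout line was a clone or a pool, how XG was disrupted and whether replicates were separate cultures is not given in the labels. The spread behind the p-values given for other genes is that between these libraries and may be technical. The lists of other genes were also chosen with earlier results of these data known.

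Homeobox genes encode transcription factors that hold DNA through a homeodomain, which contacts a short AT-rich core sequence. In the paired class the homeodomain resembles that of the fly gene paired, and many members bind as dimers on inverted copies of that core. PAX proteins carry a second DNA-binding part, the paired domain, while PRRX, RAX, PITX, SHOX and OTX proteins have the homeodomain alone. These factors are best known from embryos, where they pattern limb and face mesenchyme, neural crest, muscle precursors, eye and forebrain. Ewing sarcoma is a tumour of bone and soft tissue driven in most cases by a fusion of EWSR1 with an ETS factor such as FLI1.

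Promoters are shown for PRRX2 and RAX, the members with the largest differences between groups, and for PRRX1, the closest paralog of PRRX2. Each is 250 bases before and 50 bases after a RefSeq start site (GRCh38.p14), read 5′ to 3′ on the strand of the gene. All 9 members matched the RefSeq promoter table, with 18 promoters in all. Capitals mark GGGCGG, the GC box bound by SP-family factors, and TAAT, the homeodomain core, each on either strand. The PRRX2 window lies at chr9:129665397-129665696 (plus strand), the RAX window at chr18:59273405-59273704 (minus strand) and the PRRX1 window at chr1:170663881-170664180 (plus strand). The RAX and PRRX1 windows lie inside the gene spans of the count table, whose annotation begins further upstream.
PRRX2: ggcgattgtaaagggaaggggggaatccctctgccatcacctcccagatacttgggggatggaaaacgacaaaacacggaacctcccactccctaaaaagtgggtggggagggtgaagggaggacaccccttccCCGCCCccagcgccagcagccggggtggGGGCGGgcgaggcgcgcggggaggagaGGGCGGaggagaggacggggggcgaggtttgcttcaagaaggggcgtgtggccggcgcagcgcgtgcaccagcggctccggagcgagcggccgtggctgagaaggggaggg
RAX: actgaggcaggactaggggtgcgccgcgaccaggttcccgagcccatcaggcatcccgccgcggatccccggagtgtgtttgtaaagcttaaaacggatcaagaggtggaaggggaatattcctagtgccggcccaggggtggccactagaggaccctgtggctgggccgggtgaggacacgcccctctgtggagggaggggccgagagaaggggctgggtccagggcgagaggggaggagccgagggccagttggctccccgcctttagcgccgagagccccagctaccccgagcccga
PRRX1: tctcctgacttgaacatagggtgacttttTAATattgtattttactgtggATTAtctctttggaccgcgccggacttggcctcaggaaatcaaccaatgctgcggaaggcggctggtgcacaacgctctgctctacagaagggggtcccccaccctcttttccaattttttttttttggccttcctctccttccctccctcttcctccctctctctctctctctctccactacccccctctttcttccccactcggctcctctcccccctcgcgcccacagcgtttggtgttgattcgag

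The PRRX2 window had a GC content of 68.3% with 24 CpG sites and 3 matches to GGGCGG, while no TAAT was in it. The RAX window had a GC content of 67% with 20 CpG sites and held neither motif. The PRRX1 window was less GC-rich, at 53% with 11 CpG sites, and held TAAT at 2 places and no GGGCGG. Among 35116 promoters of the same length from 27305 genes, the median GC content was 58.7%. GGGCGG was found in 45.0% of them and TAAT in 50.2%. None of the 3 windows held TAATTA (4.84% of all promoters), the ETS repeat GGAAGGAA (3.67%) or TATAAA (11.5%), searched on both strands. TAATTA contains TAAT, so matches to them overlap. These matches describe letters in the windows and show no binding.

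XG itself was lower but not absent in the cells labelled as knockout. It had 746, 948 and 836 counts in the XG knockout libraries, against 1254, 1228 and 999 in the wildtype libraries. The XG level was 29.6 ± 0.642 CPM (counts scaled to library size) in XG knockout cells and 45.7 ± 1.37 CPM in wildtype cells (SD, n = 3 each). That is 64.8% of wildtype, a log2 fold change (XG knockout over wildtype throughout) of -0.63 with a standard error (SE) of 0.0478 and an adjusted p of 1.65e-06 by edgeR's quasi-likelihood test. Whether intact protein is made from the transcript that is left cannot be read from exon counts.

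Library totals were 24934343 to 31214099 counts in XG knockout cells and 22557187 to 27765294 counts in wildtype cells. Of 14425 genes with enough counts to test, 196 (1.36%) passed an adjusted p of 0.05, with 64 (0.444%) higher and 132 (0.915%) lower in XG knockout cells. Knockout replicate 3 stood apart from the other knockout libraries. Over all genes with enough counts to compare, its counts differed from those of knockout replicates 1 and 2 by a chi-square per gene of 4.71 and 4.29, and from the 3 wildtype libraries by 2.16 to 2.38, so that it was nearer to each wildtype library than to its own group. XG itself was at 28.9 CPM in it, the lowest of all 6 libraries and in the direction of its label. For the genes above the upper quartile of GC content, the median log2 level relative to the gene's mean was -0.092, -0.075 and 0.054 in knockout replicates 1, 2 and 3, against 0.040, 0.052 and 0.039 in wildtype replicates 1, 2 and 3. Knockout replicate 3 lay with the wildtype libraries for GC-rich genes as well. PRRX2, PITX1 and RAX have GC-rich transcripts, so their differences are also given without this library and after a correction that removes each library's trend with GC content.

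All 13 genes on a list of Ewing sarcoma line markers had counts and were tested, with a summed level of 4822 to 4885 CPM in XG knockout libraries and 4924 to 4974 CPM in wildtype libraries. The largest parts of that sum were CCND1 and JAK1, at 1359 and 1253 CPM in XG knockout cells and 1418 and 1249 CPM in wildtype cells. FLI1 stood at 78.8 CPM in XG knockout cells and 78.7 CPM in wildtype cells. IL1RAP rose (log2 fold change 0.16, edgeR adjusted p = 0.0149), while CD99 (-0.12, adjusted p = 0.0302) and PAPPA (-0.14, adjusted p = 0.0447) fell, each losing its call under some of the alternatives. These calls are 23.1% of the 13, where 1.36% of all tested genes passed. The list was chosen with earlier results known, so nothing is read from that share. After GC correction CD99 lost its call (-0.068, edgeR adjusted p = 0.142), while IL1RAP (0.13) and PAPPA (-0.15) kept theirs. Fibroblast markers summed to 74.1 to 83.2 CPM in XG knockout libraries and 78.5 to 84.3 CPM in wildtype libraries. All 8 had counts, with 0 of 6 tested past the threshold. COL1A2 and PDGFRA were too low to test. COL1A2 averaged 0.0479 CPM in XG knockout cells and 0.0362 CPM in wildtype cells, and PDGFRA 0.0326 and 0.0545 CPM. Most of the sum came from COL1A1 and COL3A1, at 28.6 and 32.9 CPM in XG knockout cells and 29.4 and 36.9 CPM in wildtype cells. Of 8 skeletal muscle markers 4 had counts, with MYOG, MYF5, DES and MYH8 at 0 in all 6 libraries. Of 7 melanocyte markers 4 had counts, with TYR, MLANA and SOX10 at 0. Of 9 retinal markers 5 had counts, with RCVRN, CRX, GNAT1 and RPE65 at 0. Summed levels were 0.683 to 1.17 CPM for muscle in XG knockout libraries and 0.576 to 0.832 CPM in wildtype libraries. They were 4.30 to 4.55 CPM for melanocytes in XG knockout libraries and 4.2 to 4.68 CPM in wildtype libraries, and 0.587 to 0.759 CPM for retina in XG knockout libraries and 0.434 to 0.806 CPM in wildtype libraries. The tested genes of these 3 lists, numbering 1, 2 and 1, included 0 past the threshold. In bulk RNA, fewer cells of a type and less RNA per cell cannot be told apart.

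Of the 9 members, 8 passed the filter on low counts and OTX2 did not. Fitted log2 fold changes were negative for 7 and positive for 1 of these 8, with a median of -0.12, against 0.0019 over all genes tested. After GC correction the median was -0.085, against 0.00091 over all genes tested, and PITX1 turned positive (0.019). PRRX2 and RAX, 2 of the 8, were past an adjusted p of 0.05, both lower, where 1.36% of all tested genes were past it and 0.915% were lower. After GC correction the same 2 genes were past it, where 2.35% of all tested genes were and 1.26% were lower. Over 15 alternative settings, PRRX2 was past an adjusted p of 0.05 in 15 and RAX in 8, with 7 where RAX was not. Over 6 more, with GC correction and a library left out, PRRX2 was past it in 6 and RAX in 5. The members were chosen with this comparison known, so nothing is read from these counts. For the same 2 genes, every XG knockout library lay below every wildtype library, which held for 9.8% of all tested genes (10.7% lay above and 20.5% were apart either way).

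**Figure D1:**
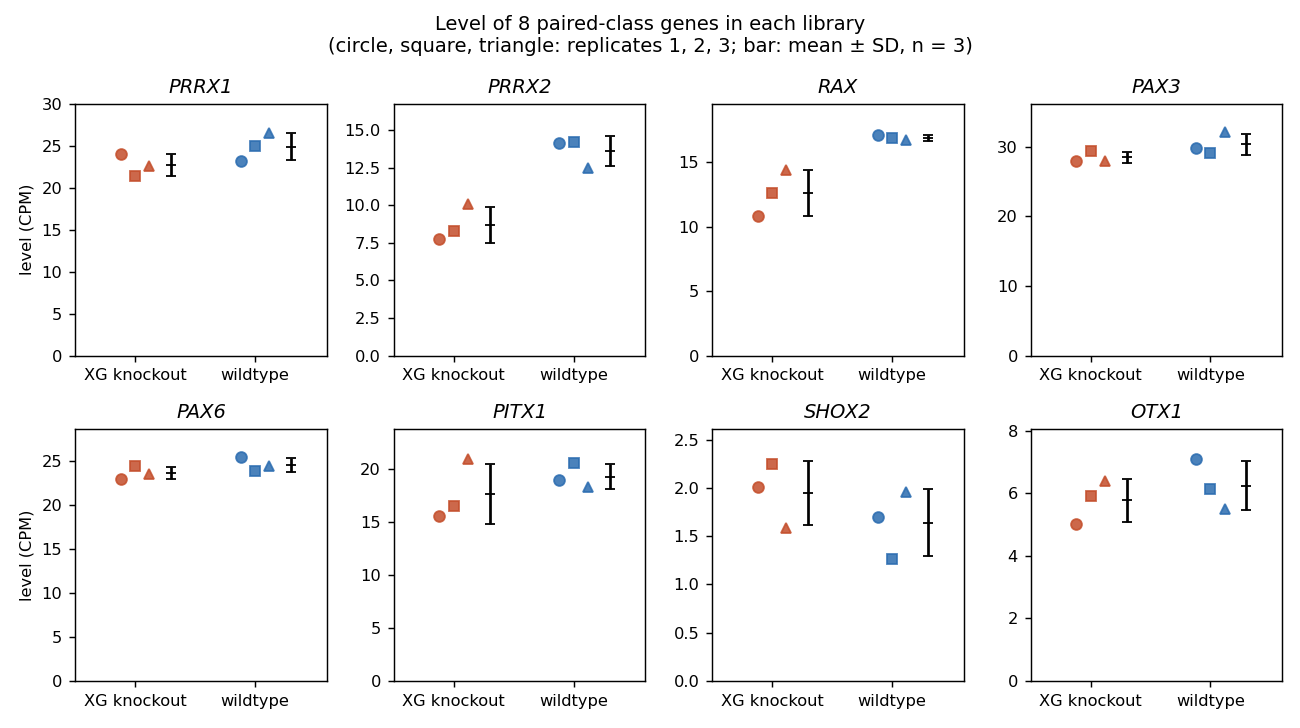
Level of each of 8 paired-class genes in CPM (vertical axes start at 0) in the 3 XG knockout libraries (left) and the 3 wildtype libraries (right). Circles, squares and triangles are replicates 1, 2 and 3, and the bar is the mean ± SD (n = 3). The groups are apart for PRRX2 and RAX and overlap for the other genes.

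PRRX2 encodes a factor of embryonic mesenchyme that acts beside PRRX1 in limb and face of the mouse. The gene (ENSG00000167157.11) lies at chr9:129665647-129722674 on the plus strand, with 1305 bases of merged exons and a GC content of 69.0% in its longest transcript. PRRX2 had 194, 262 and 292 counts in XG knockout replicates 1, 2 and 3, against 392, 371 and 281 counts in wildtype replicates 1, 2 and 3. Scaled to library size, these were 7.79, 8.29 and 10.1 CPM in XG knockout libraries, against 14.2, 14.2 and 12.5 CPM in wildtype libraries. The groups did not overlap, and knockout replicate 3 lay nearest to the wildtype libraries while wildtype replicate 3 lay nearest to the knockout libraries. The 3 knockout libraries stood at 57.1%, 60.7% and 73.9% of the wildtype mean. The means were 8.72 ± 1.20 CPM in XG knockout cells and 13.6 ± 0.988 CPM in wildtype cells (SD, n = 3 each), a log2 fold change of -0.65 (SE 0.0938). After GC correction the log2 fold change was -0.50 (SE 0.0775), and with knockout replicate 3 as the only knockout library it was -0.44. Without that library it was -0.76. By GC content PRRX2 ranks at the 99.5th percentile of tested genes, and 0.617% of tested genes had a lower fold change. In the authors' deposited table the PRRX2 log2 fold change was -0.65 with a standard error of 0.124.

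PRRX1 is the paralog of PRRX2 and marks limb bud and craniofacial mesenchyme. The gene (ENSG00000116132.12, chr1:170662728-170739421, plus strand) has a less GC-rich transcript, at 41.0%. PRRX1 had 24.1, 21.5 and 22.6 CPM in XG knockout libraries, against 23.3, 25.0 and 26.6 CPM in wildtype libraries. The groups overlapped, since knockout replicate 1 lay above wildtype replicate 1. The means were 22.7 ± 1.30 CPM in XG knockout cells and 25.0 ± 1.65 CPM in wildtype cells (SD, n = 3 each), a log2 fold change of -0.13 (SE 0.0635). After GC correction it was -0.17. Per kilobase of merged exons, PRRX2 made up 67.1%, 70.9% and 73.8% of the summed PRRX1 and PRRX2 level in XG knockout replicates 1, 2 and 3, against 79.4%, 78.3% and 74.8% in wildtype replicates 1, 2 and 3. On this length PRRX2 was the more abundant of the pair in every library, with the groups a single percentage point apart at their nearest. Without scaling to length, PRRX1 had the higher CPM in every library. Per kilobase of longest transcript the means were 6.65 for PRRX2 and 5.31 for PRRX1 in XG knockout cells. In wildtype cells they were 10.4 for PRRX2 and 5.83 for PRRX1.

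RAX encodes the retina and anterior neural fold homeobox factor, needed for eye formation in vertebrates. The gene (ENSG00000134438.10, chr18:59267035-59274086, minus strand) has a transcript GC content of 63.3%. RAX had 269, 398 and 416 counts in XG knockout replicates 1, 2 and 3, against 473, 439 and 375 counts in wildtype replicates 1, 2 and 3. The levels were 10.8, 12.6 and 14.4 CPM in XG knockout libraries, against 17.1, 16.9 and 16.7 CPM in wildtype libraries. The wildtype libraries were close together and above all knockout libraries, which were spread more widely, with replicate 1 lowest and replicate 3 highest. RAX stood at 64.0%, 74.5% and 85.1% of the wildtype mean in the 3 knockout libraries. The means were 12.6 ± 1.78 CPM in XG knockout cells and 16.9 ± 0.218 CPM in wildtype cells (SD, n = 3 each), a log2 fold change of -0.42 (SE 0.084). After GC correction it was -0.32 (SE 0.0686), and with knockout replicate 3 alone it was -0.23. Without that library it was -0.52, so the value moved by more than 1.5 times between settings while its sign did not turn.

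**Figure D2:**
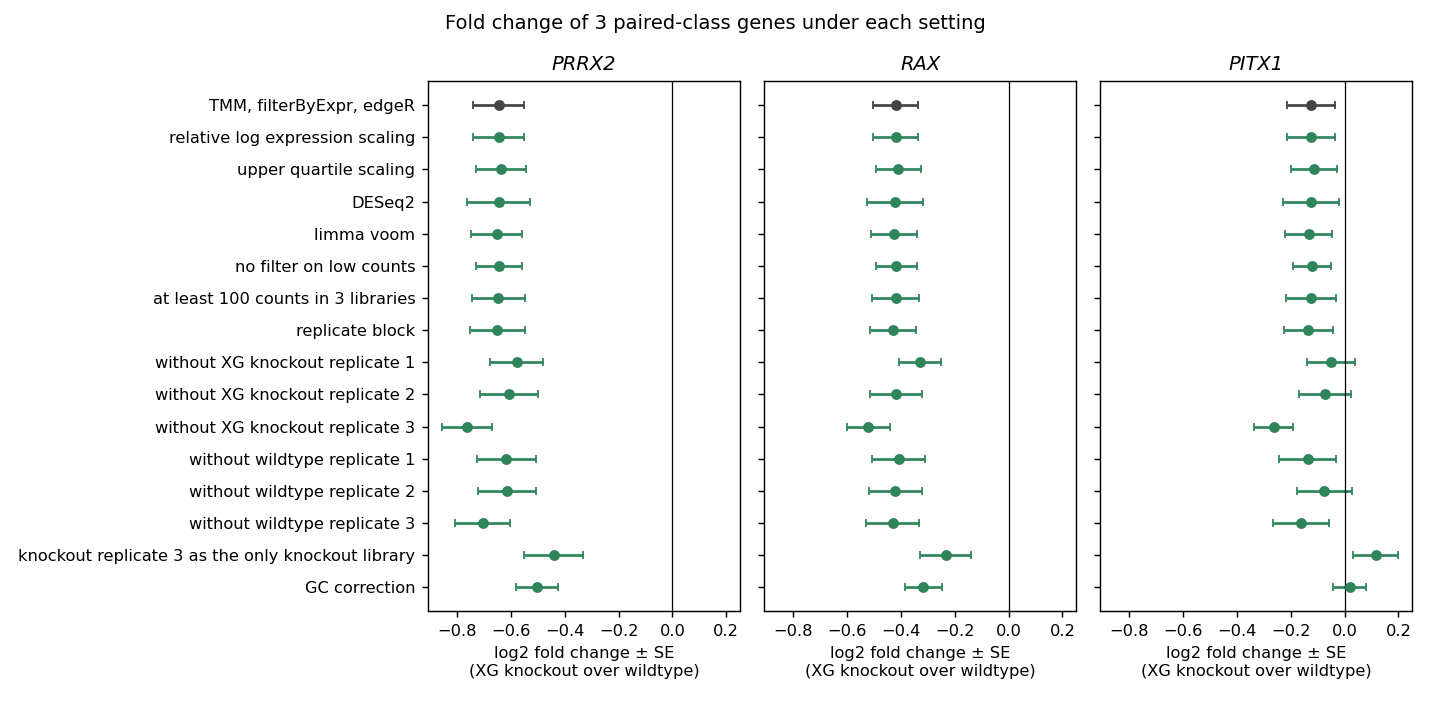
Log2 fold change (XG knockout over wildtype) with its SE for PRRX2, RAX and PITX1 in the fit reported and under 15 alternative settings. All PRRX2 and RAX values are below 0, with PRRX2 between -0.76 and -0.44 and RAX between -0.52 and -0.23, while PITX1 crosses 0, between -0.26 and 0.12.

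PITX1 encodes a factor that specifies hindlimb and contributes to pituitary development. The gene (ENSG00000069011.16, chr5:135027734-135034813, minus strand) has nearly the transcript GC content of PRRX2, at 68.9%. PITX1 had 15.6, 16.4 and 20.9 CPM in XG knockout libraries, against 19.0, 20.5 and 18.2 CPM in wildtype libraries. Knockout replicates 1 and 2 were the lowest of the 6 libraries and knockout replicate 3 the highest, so the groups overlapped. The means were 17.6 ± 2.84 CPM in XG knockout cells and 19.2 ± 1.17 CPM in wildtype cells (SD, n = 3 each), with a log2 fold change of -0.12 (SE 0.0888). After GC correction the sign turned, to 0.019 (SE 0.0622). Without knockout replicate 3 the value was -0.26, and with that library alone it was 0.12. PITX1 and PRRX2 thus had like GC content and unlike fold changes after the correction, a difference that was not tested.

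PAX3 encodes a factor of neural crest and muscle precursors, and PAX6 a factor of eye, forebrain and pancreas. PAX3 (ENSG00000135903.19, chr2:222199888-222298996, minus strand) had 28.0, 29.4 and 28.0 CPM in XG knockout libraries, against 29.8, 29.1 and 32.1 CPM in wildtype libraries. Its log2 fold change was -0.089 (SE 0.0543), with knockout replicate 2 above wildtype replicate 2. PAX6 (ENSG00000007372.23, chr11:31784779-31817961, minus strand) had 22.9, 24.4 and 23.5 CPM in XG knockout libraries, against 25.4, 23.8 and 24.4 CPM in wildtype libraries. Its log2 fold change was -0.055 (SE 0.056), and the groups overlapped. After GC correction the log2 fold changes were -0.082 for PAX3 and -0.088 for PAX6. ELP4, an elongator subunit gene, overlaps PAX6 on the opposite strand and had a log2 fold change of 0.034. Counting was strand-specific, so the pair were kept apart.

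SHOX2 encodes a factor of the proximal limb and the sinoatrial node, OTX1 and OTX2 factors of forebrain and sense organs. SHOX2 (ENSG00000168779.19, chr3:158095954-158106503, minus strand) had few counts, with 50, 71 and 46 in XG knockout libraries and 47, 33 and 44 in wildtype libraries. The groups overlapped, at 1.95 ± 0.333 CPM in XG knockout cells and 1.64 ± 0.349 CPM in wildtype cells (SD, n = 3 each), and the log2 fold change was 0.26 (SE 0.204). Among the tested members SHOX2 alone had a positive value as fitted, which became -0.037 under 1 of the alternatives. OTX1 (ENSG00000115507.10, chr2:63050057-63057836, plus strand) had 5.77 ± 0.693 CPM in XG knockout cells and 6.25 ± 0.794 CPM in wildtype cells (SD, n = 3 each). Its log2 fold change was -0.12 (SE 0.118), within the spread of its libraries. OTX2 (ENSG00000165588.17, chr14:56799905-56816693, minus strand) had 0 counts in all knockout libraries and 0, 0 and 1 in wildtype libraries. For the XG knockout group as a whole, 0 counts allow a level of up to 0.0351 CPM (3 counts over the group, counting error only), so no fold change is given.

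**Figure D3:**
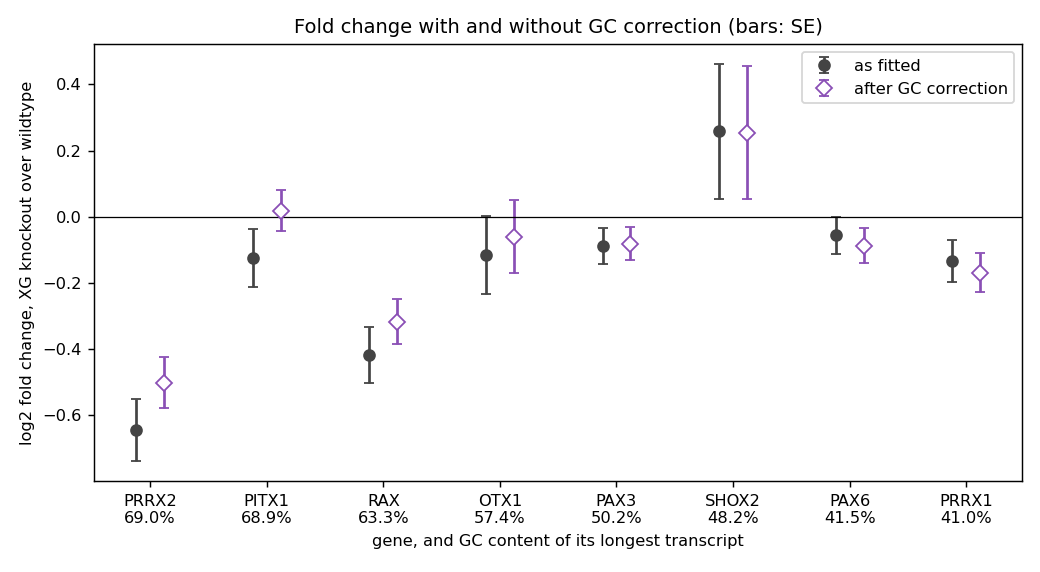
Log2 fold change (XG knockout over wildtype, bars SE) for the 8 tested members, ordered by the GC content of their longest transcript, as fitted and after GC correction. PITX1 is at -0.12 as fitted and at 0.019 after the correction, while PRRX2 (-0.65 and -0.50) and RAX (-0.42 and -0.32) stay below 0.

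Levels were compared between genes per kilobase of merged exons. In XG knockout cells the order was PRRX2 (6.68), PITX1 (5.12), PAX3 (3.58), RAX (3.32), PRRX1 (2.76), OTX1 (1.19), PAX6 (1.14) and SHOX2 (0.386), in CPM per kilobase. In wildtype cells it was PRRX2 (10.5), PITX1 (5.59), RAX (4.46), PAX3 (3.82), PRRX1 (3.03), OTX1 (1.29), PAX6 (1.19) and SHOX2 (0.325). The library ranges of OTX1 and PAX6 overlapped in both groups, as did those of PRRX2 and PITX1, PAX3 and RAX, and RAX and PRRX1 in XG knockout cells only. RAX and PAX3 stood in the opposite order in the groups. Merged exons can exceed the transcript in use: PAX6 has 20639 bases of merged exons and a longest transcript of 7290 bases. Per kilobase of longest transcript the order was different, with PAX3 at 8.98 in XG knockout cells and 9.57 in wildtype cells, and PRRX2 at 6.65 in XG knockout cells and 10.4 in wildtype cells.

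The paired class as listed here holds 48 genes, of which 31 had a count in some library and 18 were tested. Of these 18, which include the 8 members chosen with this comparison known, 15 had a negative and 3 a positive log2 fold change, against 7084 negative and 7341 positive over all genes tested. Without the members it was 8 negative and 2 positive of 10. The 39 class genes beyond the members included 10 tested, of which 0 passed the edgeR test, and DESeq2 and limma voom also called 0. Of the 10, 3 had an unadjusted edgeR p under 0.05, as had 2422 of all 14425 genes tested. Their median log2 fold change was -0.11, and -0.051 after GC correction, against 0.0019 and 0.00091 over all genes tested. ALX4, a factor of craniofacial mesenchyme, had the highest level per kilobase of the class, at 33.5 CPM per kilobase in XG knockout cells and 35.9 in wildtype cells, with a log2 fold change of -0.10 (SE 0.0301, adjusted p = 0.104). PAX7, a muscle stem cell factor named here for its level after its values were seen, had 61.2 ± 2.53 CPM in XG knockout cells and 63.6 ± 0.206 CPM in wildtype cells. Among the 13 class genes with counts too low to test, PAX5 had 52 counts over all libraries, HESX1 22 and GSC2 13. SHOX, the paralog of SHOX2, had 0 counts in all 6 libraries.

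**Figure D4:**
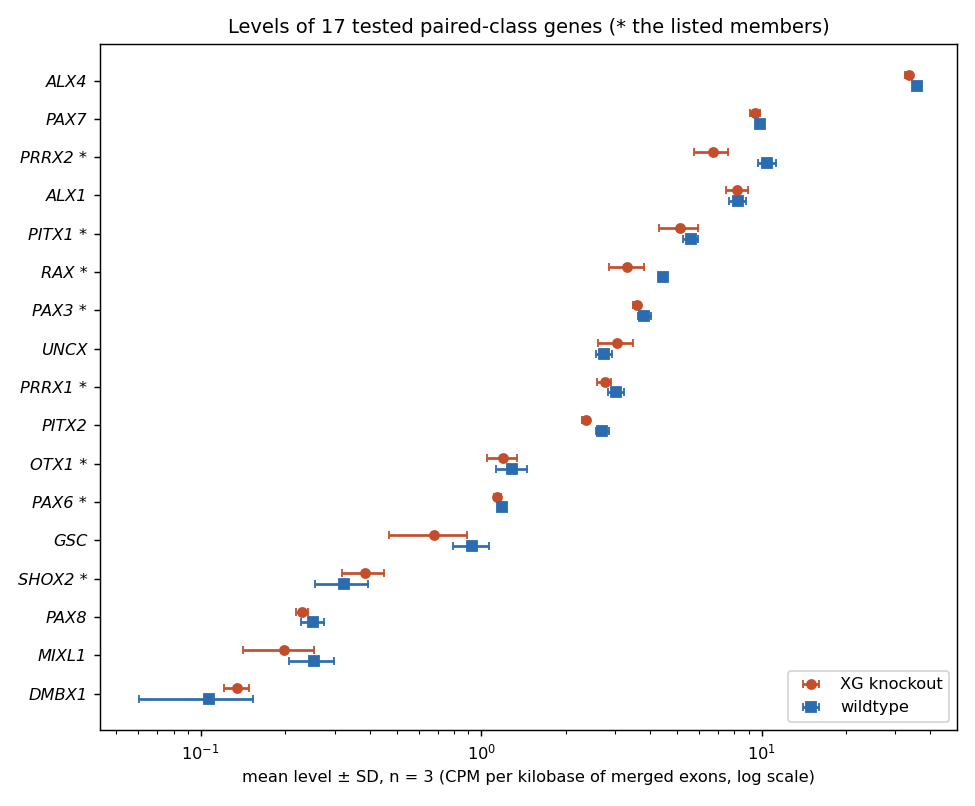
Mean level ± SD (n = 3) of 17 tested paired-class genes in XG knockout (circles) and wildtype (squares) cells, in CPM per kilobase of merged exons on a log axis, with the listed members starred. ALX4 leads at 33.5 in XG knockout cells and 35.9 in wildtype cells, and PRRX2 is the highest starred gene on this length.

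Homeodomain proteins act with cofactors and control genes known from other tissues, and lists of both were compared. Of 24 cofactors 22 were tested and SRF, a factor that PRRX1 binds, fell, while the other 21 did not pass. The 1 call is 4.55% of those tested, where 1.36% of all tested genes passed and 0.915% were lower. SRF had 83.9 ± 2.41 CPM in XG knockout cells and 93.4 ± 2.58 CPM in wildtype cells (SD, n = 3 each), so that SRF stood at -0.16 on the log2 scale (SE 0.037, adjusted p = 0.0438 by edgeR). Its call was lost in 10 of 15 alternatives, including every library left out except knockout replicate 3, and the GC-corrected value was -0.071 (adjusted p = 0.289). The list's median log2 fold change was 0.0017, against 0.0019 over all genes tested.

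Of 25 genes described in other tissues as targets of these factors, 17 were tested and FGFR3 fell, with 16 not past the threshold. The 1 call is 5.88% of those tested, where 1.36% of all tested genes passed and 0.915% were lower. FGFR3, a growth factor receptor gene and described target of SHOX proteins in cartilage, had 32.6 ± 2.59 CPM in XG knockout cells and 41.9 ± 1.34 CPM in wildtype cells (SD, n = 3 each). On the log2 scale this was -0.36 (SE 0.056, adjusted p = 0.00395 by edgeR), and -0.26 after GC correction. Leaving out wildtype replicate 3 ended the call (adjusted p = 0.0576), and the other 14 alternatives did not. The list's median was -0.13, and -0.090 after GC correction. The PITX1 target TBX4, the PRRX1 target TNC and the PAX3 targets MET and MITF were named after their values were seen. Their fitted log2 values were -0.13, -0.22, 0.28 and -0.058, and 0 of these 4 passed the test. An unadjusted edgeR p under 0.05 was reached by 7 of the 17 tested targets, with FGFR3, TBX4, TNC and MET among them. Over all genes tested it was 2422 of 14425. Groups were apart for 7 targets lower and 2 higher in XG knockout cells, where 20.5% of all tested genes were apart. The list was chosen with earlier results known, so nothing is read from these counts.

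Lists of factors expressed in the tissues these genes pattern showed no call. Of 28 limb bud and mesenchyme factors 18 were tested and 0 passed the edgeR test. An unadjusted p under 0.05 was reached by 2 of them, and by 2422 of all 14425 genes tested. The 2 were FOXC1, a mesenchyme and eye factor, at 0.24 (adjusted p = 0.246) and LMX1B, a dorsal limb factor, at 0.24 (adjusted p = 0.248). Of 18 eye field and forebrain factors 6 were tested and 0 passed, with 1 at an unadjusted p under 0.05. ZIC2 had a log2 fold change of -0.11 (adjusted p = 0.108) and SIX3, an eye field factor, -0.064 (adjusted p = 0.712). The medians were -0.0068 for the limb list and -0.019 for the eye and forebrain list.

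Genes near each member on the chromosome were compared as well. Within 500 kb of the 9 members lie 191 other genes, of which 44 were tested and 2 passed, both lower, or 4.55% of those tested, where 1.36% of all tested genes passed and 0.915% were lower. Log2 fold changes of the 44 ran from -0.48 to 0.63 with a median of 0.026. NTMT1, a protein methyltransferase gene 29.5 kb from PRRX2, had 78.2 ± 3.52 CPM in XG knockout cells and 88.8 ± 0.994 CPM in wildtype cells (SD, n = 3 each), or -0.18 on the log2 scale (SE 0.0388, adjusted p = 0.0262 by edgeR). Its call was lost in 8 of 15 alternatives, including each library left out except knockout replicate 3, and with GC correction (adjusted p = 0.108). GRP, a neuropeptide gene 36.3 kb from RAX, had 333 ± 10.3 CPM in XG knockout cells and 375 ± 7.02 CPM in wildtype cells (SD, n = 3 each), or -0.17 on the log2 scale (SE 0.029, adjusted p = 0.00685 by edgeR). The GRP call ended when wildtype replicate 1 (adjusted p = 0.113), 2 (0.0586) or 3 (0.0576) was left out, and with the replicate block (0.0501). After GC correction GRP kept its call, at -0.15 on the log2 scale (edgeR adjusted p = 8.7e-05). Of 13 tested neighbours of PRRX2, 10 had a negative value, with a median of -0.049, and of 4 neighbours of RAX the median was -0.027.

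**Figure D5:**
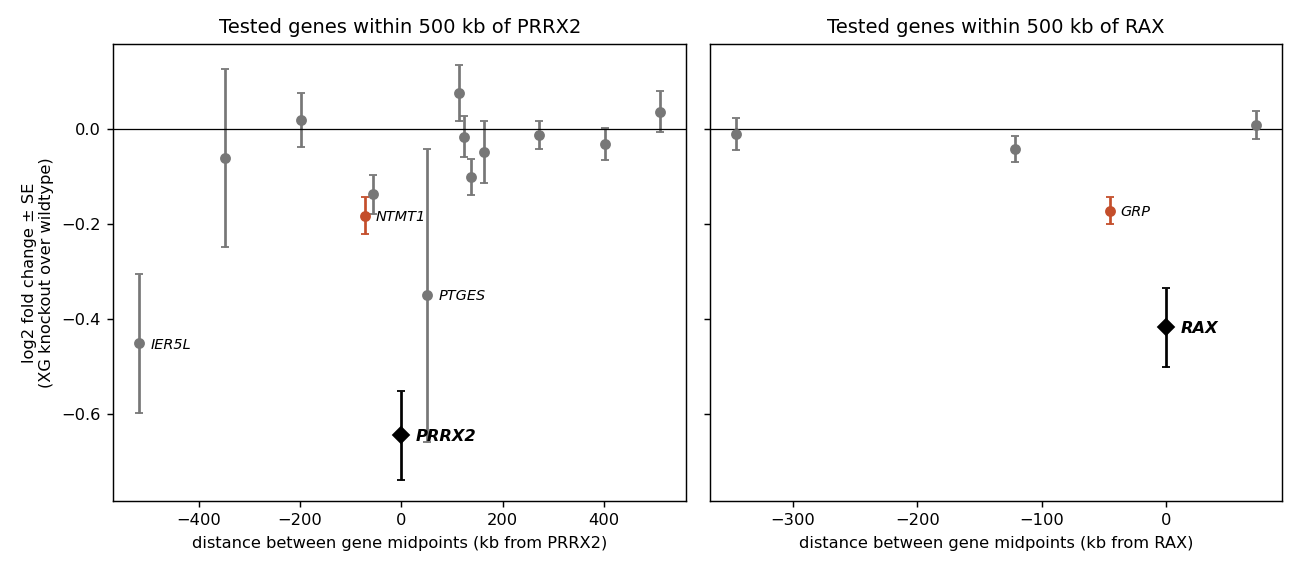
Log2 fold change ± SE (XG knockout over wildtype) of tested genes within 500 kb of PRRX2 and of RAX, by the distance between gene midpoints in kilobases. Diamonds are PRRX2 (-0.65) and RAX (-0.42), coloured circles are NTMT1 (-0.18) and GRP (-0.17), and grey circles did not pass the test.

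The protein-coding genes whose values across the 6 libraries ran most nearly alongside those of PRRX2 and RAX were ranked. The measure was the root mean square difference of log2 CPM, centred on the gene's mean over the 6 libraries, among 10002 tested genes with at least 5 CPM. For PRRX2 the nearest were DACT2 (0.0803), SAMD11 (0.103), the histone gene H2AJ (0.123), the actin regulator CARMIL2 (0.127) and RAX (0.127), where the median gene stood at 0.353. For RAX the nearest were the AP-1 subunit gene JUNB (0.0463), SAMD11 (0.0497), TPRN (0.0588), C1QL1 (0.0602) and SCARF2 (0.0640), where the median gene stood at 0.253. All of these had a transcript GC content of at least 63.3% except H2AJ at 42.6%. Over all tested genes the median GC content was 48.0%, and 93.8% of genes were at or below the 63.3% of RAX. Genes selected this way share the libraries and their differences, so the list is a description.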

How the data were processed

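RNA from 6 TC-71 libraries was profiled with a stranded mRNA kit, per the labels' protocols. Per the file headers, the authors ran featureCounts 2.0.1 over GENCODE 33 exons, and the deposited counts are fragments per gene, with reverse-strand and paired-end options. Reads were aligned with STAR 2.7.6a on GRCh38, per the submitters' processing notes. The authors' deposited table holds log2 fold changes, Wald statistics (a score per gene), p-values and adjusted p-values and the mean normalized signal per gene, from DESeq2 1.38.3 in R 4.2.2 per the submitters' processing notes. Its direction is not stated in the sources used here, and its XG value has the sign of XG knockout over wildtype. It gives no adjusted p for PRRX2, RAX, PITX1, SHOX2, OTX1 and OTX2.

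All 14425 genes kept by filterByExpr (minimum count 10, minimum total 15) were fitted with edgeR 4.0.16 (TMM scaling, quasi-likelihood test, two-sided) under R 4.3.3. P-values were adjusted by Benjamini and Hochberg's method over all these genes, with a threshold of 0.05. SE is the size of the fold change over the square root of F. The median SE was 0.0636, at a common biological coefficient of variation of 3.28%. Replicates differed by more than sampling noise (chi-square per gene 1.46 to 1.69 within wildtype, 2.57 to 4.71 within XG knockout). GC correction removed a lowess trend (span 0.5) of log2 CPM on the GC content of the longest GENCODE 29 transcript, with a value for 99.5% of tested genes. Scripts were tested on simulated data.

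The members and lists (marker lists, other paired-class genes, cofactors, described targets, limb and eye factors) were chosen with earlier results of these data known. Named genes are the members, XG, up to 4 called genes per list and neighbourhood by smallest p, or with none called up to 2, the nearest genes by pattern, and a few others said to be named after their values were seen. Alternatives were other scalings, DESeq2 1.42.0, limma 3.58.1 voom, other filters, the replicate number as a block, each library left out, knockout replicate 3 alone and GC correction. GC correction with each library left out was added after seeing the data. Where 1 knockout library is used, its spread is taken to be that of the wildtype libraries. Protein sequences were not used here. The values of 1 gene of the class are not reported here.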

Additional observations from a re-analysis of the deposited data

How the results depend on the processing

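XG stayed lower in XG knockout cells and past the threshold in all 15 planned and 6 added alternatives (log2 fold change -0.68 to -0.60). As a description, the PRRX2 value ran from -0.76 to -0.44 over them. Without a filter on low counts, 647 genes were called (500 lower, 147 higher), 1 of them in the rest of the paired class. With at least 100 counts in 3 libraries 85 were lower and 0 cofactors were called, and 0 cofactors were called with upper quartile scaling. With knockout replicate 3 as the only knockout library, 125 genes were called, 54 lower, with 1 member, 0 cofactors and 1 gene near a member. GC correction gave 339 calls, with 182 lower against 132 without it and 157 higher against 64, and 0 cofactors. The share of lower calls was then 53.7%, against 67.3%. That share was 43.2% with knockout replicate 3 alone and 77.3% without a filter. The cause of these shifts was not tested.

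The replicate numbers gave no sign of pairing: same-numbered libraries had correlations of -0.046, -0.024 and -0.051 between their deviations. With 3 libraries per group, these values cannot settle whether samples were handled in pairs. With the replicate block, 37 genes were called (25 lower, 12 higher), with 1 member, 0 cofactors and 0 genes near a member.

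With a library left out, with or without GC correction, calls ranged from 18 (without wildtype replicate 3) to 1851 (without knockout replicate 3). Lower calls ranged from 11 to 1329 and higher calls from 7 to 522. With GC correction as well, the calls without wildtype replicates 1 and 2 included 68 and 73 lower genes. Those without knockout replicate 1 were 393 (230 lower, 163 higher), those without knockout replicate 3 were 386 (224 lower, 162 higher), and 135 were higher without knockout replicate 2. Calls ranged from 1 to 3 among members, 0 to 2 in the rest of the class, 0 to 3 among cofactors, 0 to 3 among described targets, 0 to 1 among limb factors, 0 to 1 among eye and forebrain factors and 0 to 4 near members. Depth limits SHOX2 and OTX2, with at most 71 and 1 counts in a library.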
